A study of Mus musculus with 4 samples.

Results

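The type II hair shaft keratins are 7 listed genes, Krt81 to Krt87, that encode the basic keratins of the hair fibre. They were taken from the arrays by name, as non-control probes that carry a member's symbol or an older symbol of the same gene. Of the 7 genes, 5 had a probe under their current name (Krt82, Krt84, Krt85, Krt86 and Krt87), and these 5 were among the 17550 genes tested, out of 28034 named genes on the array. No probe carried Krt81 or Krt83 as its current name, so both are without a value of their own.

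RNA came from full-thickness dorsal skin of male C57BL/6 mice aged 42 days, with the hair cycle phase of both groups labelled as telogen. In the Fgf18 cKO group, called cKO below, the gene for the growth factor Fgf18 was conditionally deleted in epithelial cells positive for keratin 5. The control group, called WT below, were C57BL/6 mice described without any targeted allele. The study set the groups side by side to define genes that depend on Fgf18 in resting skin. Each group was 1 pool of polyA RNA from 3 mice, read on 2 one-colour arrays. The arrays of a group are thus technical duplicates, and every SD, SE and p-value below describes at most the spread between arrays of 1 pool. The tests compare 2 RNA pools, since the spread between mice was not measured. In whole skin, fewer cells of a type and less RNA per cell cannot be told apart.

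Keratins assemble as pairs of an acidic type I and a basic type II chain, and the paired chains polymerise into intermediate filaments. The hair keratins are a sulphur-rich branch of the family. Their filaments run along the hair cortex and cuticle, embedded in keratin-associated proteins and crosslinked by disulphide bonds. They are made above the dividing matrix cells while a follicle grows (anagen), and their synthesis ends as the follicle regresses and rests (telogen). Mouse type II keratin genes lie together on chromosome 15.

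The members were measured by 1 probe each, a 60-base oligonucleotide printed as 1 spot. The Krt86 and Krt87 probes are shown because they overlap in sequence and because the scanner files list more than 1 member under each. Their letters follow 5′ to 3′, with the stretch of 20 bases that both hold in capitals.
Krt86: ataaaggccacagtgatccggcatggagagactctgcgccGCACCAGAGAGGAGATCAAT
Krt87: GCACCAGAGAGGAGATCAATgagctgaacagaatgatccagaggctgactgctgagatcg
The shared stretch is 33.3% of each probe and stands at bases 41 to 60 of the Krt86 probe and at bases 1 to 20 of the Krt87 probe. The files place the Krt86 probe at chr15:101307291-101307350 on the plus strand of mm9, with transcripts of Krt81 and Krt86 listed under it. They place the Krt87 probe at chr15:101264040-101264099 on the minus strand, with transcripts of Krt81, Krt86 and Krt87 listed. That probe is named Krt83 in the files, and its transcript now carries the symbol Krt87. Signal of both probes can therefore hold RNA of more than 1 member, Krt81 included. Among all 41174 probes of the array, no other probe shared a run of 20 bases with any member's probe. The longest run shared by any other pair of member probes was 5 to 7 bases. The remaining probes lie on the minus strand of mm9 at chr15:101346996-101347055 (Krt85), chr15:101355699-101355758 (Krt84) and chr15:101371829-101371888 (Krt82). Gene models of that build were not used here, so exons and untranslated regions under the probes are not stated.

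All 5 measured members were bright in the cKO pool and near the detection limit in the WT pool. Each was well above background, the scanner software's detection call, on both cKO arrays and on neither WT array. Each passed the filter on dim probes through the cKO arrays alone, so a higher cKO level was built into passing and the count of 5 supports nothing further. Across all genes tested, 5.68% were called higher in cKO, which needed 1.5-fold or more and an adjusted p under 0.05. Among the 469 genes detected on both cKO arrays and neither WT array, as the members were, 46.7% were called higher, and 38 had a lower bound (defined next) at least as large as the smallest of the members. The median log2 change over all genes was -0.05. Because the WT spots gave only an upper limit, each change is given as a lower bound: the cKO mean against, per WT array, the higher of the probe's own signal and the lowest signal of any spot well above background.

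Krt85, which in human hair is among the earliest hair keratins to appear, in the matrix, precortex and cuticle, had a processed signal of 12803 and 12987 on the cKO arrays. On the WT arrays it had 14.7 and 21.7. The 2 cKO spots were close to each other and the WT spots lay far below them, under the lowest detected spots of their arrays (33.4 and 41.1). Krt85 averaged 12895 ± 130 in cKO against 18.2 ± 4.89 in WT (SD, n = 2 arrays each). It was at least 315-fold higher in cKO, and the fitted log2 change was 9.35 (SE 0.20, limma adjusted p = 0.00064).

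Krt86, a keratin of the hair cortex in humans, where mutations cause the brittle-hair disorder monilethrix, had 14680 and 15226 on the cKO arrays. Its WT spots read 11.2 and 8.44. The groups did not overlap, with means of 14953 ± 386 in cKO against 9.83 ± 1.97 in WT (SD, n = 2 arrays each). It was at least 365-fold higher in cKO, and the fitted log2 change was 10.44 (SE 0.18, limma adjusted p = 0.00052).

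The probe of Krt87, a hair keratin gene whose human counterpart is a pseudogene, gave 15905 and 16243 on the cKO arrays, against 21.0 and 27.6 on the WT arrays. Both WT spots were again under the detection limit of their arrays. The mean was 16074 ± 239 in cKO against 24.3 ± 4.65 in WT (SD, n = 2 arrays each), a rise of at least 393-fold, with a fitted value of 9.24 on the log2 scale (SE 0.13, limma adjusted p = 0.00036).

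Krt84, a member of the family described in human tongue papillae, had 2696 and 2724 on the cKO arrays. On the WT arrays it had 32.5 and 27.3, the first of which was just under the lowest detected spot of that array, 33.4. It averaged 2710 ± 20.3 in cKO against 29.9 ± 3.72 in WT (SD, n = 2 arrays each) and was at least 66.2-fold higher in cKO. The fitted log2 change was 6.37 (SE 0.12, limma adjusted p = 0.00057).

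Krt82, a keratin of the hair cuticle in humans, had the smallest bound. Its signal was 796 and 823 on the cKO arrays, against 7.41 and 8.67 on the WT arrays, with means of 809 ± 19.1 in cKO against 8.04 ± 0.894 in WT (SD, n = 2 arrays each). It was at least 19.8-fold higher in cKO, and the fitted log2 change was 6.52 (SE 0.072, limma adjusted p = 0.00019). Both WT values are replacements that the scanner software sets, so the WT SD, the SE and the p-value describe no measured WT spread. Since every member has only a bound, no order of the true changes can be read from these values.

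**Figure D1:**
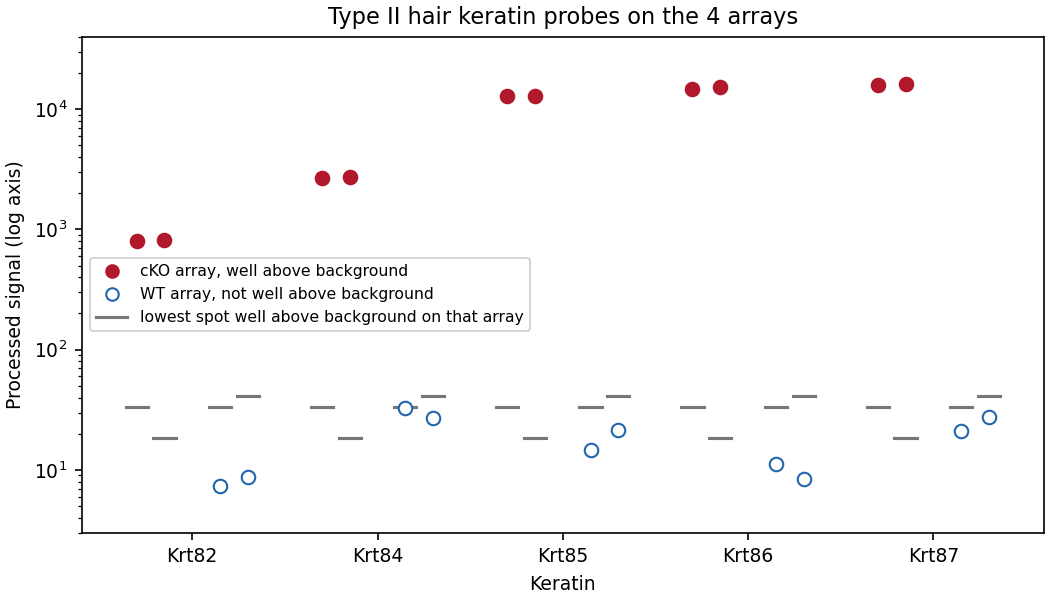
Processed signal (log axis) of the probes of the 5 measured type II hair keratins on each array, with filled points for the 2 cKO arrays and open points for the 2 WT arrays. Grey bars mark the lowest spot well above background on the same array, 33.5 and 18.5 in cKO and 33.4 and 41.1 in WT, and every WT point lies under its bar.

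The members differed in how far their WT spots stood from background. The scanner software tests each spot against its background at a p of 0.01, a looser rule than the detection call. By that rule Krt84, Krt85 and Krt87 had signal above background on both WT arrays. Krt86 had it on the first WT array but not on the second, and Krt82 had it on neither. The WT signals printed for those 3 spots are replacement values that the software sets. The WT mean and SD, the fitted change, its SE and its p-value rest on them for Krt82, and in part for Krt86. Before any background was removed, the pixel mean of the Krt82 spot was 865 and 902 on the cKO arrays, against 45.6 and 52.7 on the WT arrays, where the median of the surrounding background was 32 and 29. The pixel mean of the Krt84 spot was 2957 and 2991 on the cKO arrays, against 91.3 and 86.0 on the WT arrays, over a surrounding background of 31 and 32 on the WT arrays. The software's own background removal took away more than that surrounding median. After it, the WT spots read -2.01 and 1.47 for Krt82, and 35.4 and 29.0 for Krt84. WT skin thus gave a faint reading for some members and none for Krt82 at this sensitivity. No spot of a member was marked as saturated, uneven or an outlier on any array.

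Duplicate arrays differed far less than the pools. After scaling to the 75th percentile of each array and with WT spots raised to the lowest detected spot of their array, the nearest cKO and WT arrays were at least 4.18 log2 units (Krt82) to 8.48 log2 units (Krt87) apart. The largest gap between duplicates was 0.036 in cKO (Krt84) and 0.51 in WT (Krt85). The coefficient of variation between duplicates ran from 0.747% to 2.58% in cKO and from 11.1% to 26.9% in WT, where the spots are near background. With any 1 array left out, the bounds ran from 18.1 to 21.6-fold for Krt82, from 60.7 to 72.3-fold for Krt84, from 289 to 344-fold for Krt85, from 335 to 399-fold for Krt86 and from 360 to 429-fold for Krt87.

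The fitted changes were smaller under one alternative that replaced both background removal and normalization. With the normexp background model and quantile normalization in place of the scanner's processed signal, the log2 change was 3.66 for Krt82, 4.75 for Krt84, 7.19 for Krt85, 7.46 for Krt86 and 7.37 for Krt87. Quantile normalization alone gave 6.85 for Krt82, 6.38 for Krt84, 9.41 for Krt85, 10.71 for Krt86 and 9.31 for Krt87. The normexp values lie under the bounds of the processed signal, so the bounds hold for that signal only. The normexp setting adds an offset of 50, which is above every WT processed signal of the members (7.41 to 32.5). The part of this offset in the smaller changes was not tested. All 5 members were called higher in cKO with each of these settings, under the same filter that they passed through the cKO arrays alone.

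**Figure D2:**
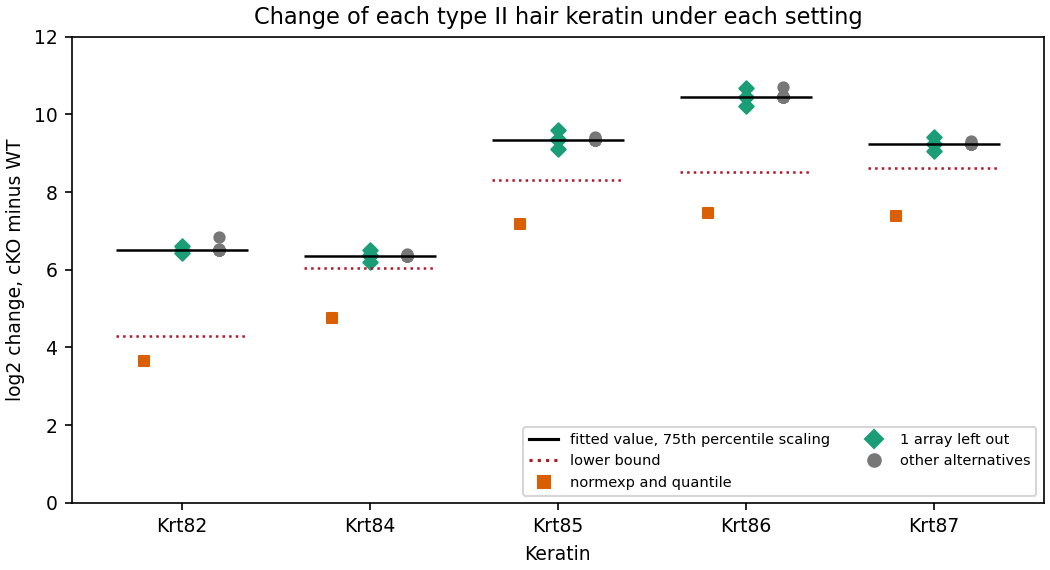
Log2 change (cKO minus WT) of each measured member under each processing setting. Black lines are the fitted values of the 75th percentile scaling, dotted lines the lower bounds, squares normexp with quantile normalization (3.66 to 7.46), diamonds the fits with 1 array left out and circles the other alternatives, and every point lies above 0.

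The members occupy one stretch of the keratin cluster, and the nearest measured type II keratins on either side of it were not called. The probe of Krt80, at the start of the cluster, had a log2 change of -0.13 and that of Krt7, 79.3 kb further along, had 0.21; neither was called. The 5 member probes then follow in the order Krt87, Krt86, Krt85, Krt84 and Krt82, at 85.2 to 192.9 kb from the Krt80 probe. The next measured gene, Krt75, a keratin of the follicle's companion layer and medulla, lies at 216 kb and had a change of 0.14 (SE 0.054, limma adjusted p = 0.11), not called. Krt75 was bright in both pools, with a mean scaled log2 level of 4.62 in cKO and 4.48 in WT.

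Among the other type II keratins of the cluster, 12 of 19 listed genes were measured, 3 rose and 0 fell, and their median log2 change was 0.11, against -0.05 over all genes. Krt71, a keratin of the inner root sheath, the layer that surrounds the growing shaft, rose by 8.13 on the log2 scale (SE 0.032, limma adjusted p = 4.3e-05). Unlike the members, Krt71 was detected on all 4 arrays, with a scaled log2 level of 6.70 and 6.64 on the cKO arrays, against -1.46 and -1.45 on the WT arrays. Krt6a, made in the follicle and in stressed epidermis, rose by 1.07, and Krt2, of the differentiating epidermis, rose by 0.63. The call of Krt2 was lost with normexp and quantile normalization and without WT replicate 1, cKO replicate 1 or cKO replicate 2, which left 2 or 3 of the list called. The 9 others were not called, among them Krt5 of the basal layer (-0.09), Krt1 of the suprabasal epidermis (-0.44) and Krt6b (0.02). Krt8 had 0.68 with an SE of 0.56, since its WT arrays disagreed (scaled log2 -3.02 and -1.56). The other Krt8 probe, also detected on all 4 arrays, had 1.28. With no filter, 15 genes of the list were measured and 4 were called higher. Krt18, a type I gene at the far end of the cluster, rose by 1.66.

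**Figure D3:**
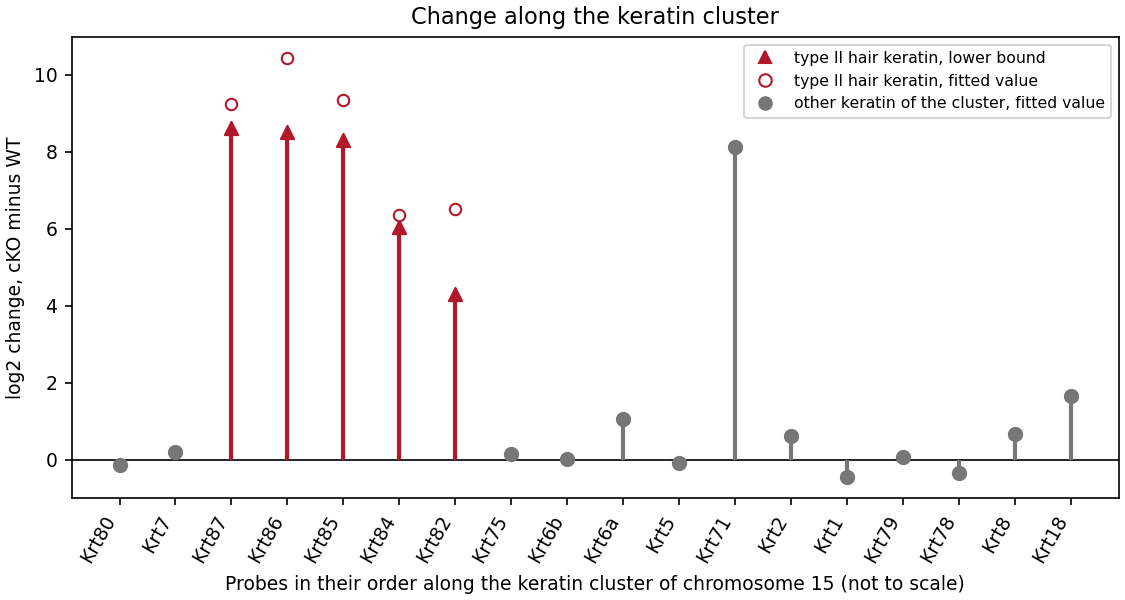
Log2 change (cKO minus WT) of the measured keratins in their order along the chromosome 15 cluster, not to scale. Red triangles are the lower bounds of the type II hair keratins and open red circles their fitted values; grey points are the other keratins, of which Krt71 (8.13) reached the range of the members and Krt75 (0.14), next to Krt82, did not.

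The type I hair keratins, which pair with the members in the shaft filament, were higher too. Of 9 listed genes, 6 were measured and all 6 rose, with a median log2 change of 7.91. For the 5 members the median was 9.24 as fitted and 8.30 with each member at its bound. Krt35, an early type I hair keratin in humans, had scaled log2 levels of 5.18 and 5.22 on the cKO arrays, against -3.23 and -3.17 on the WT arrays, or 8.40 log2 units higher (SE 0.033, limma adjusted p = 4.3e-05). Krt31 and Krt33a, cortex keratins in humans, rose by 7.42 and 8.58, and Krt36 rose by 4.51. Krt34 was not detected on either WT array and rose by at least 9.31 on the log2 scale. Krt33b rose by 4.09 by the probe that stood for it. Its other probe, not detected on either WT array, was at least 9.46 log2 units higher in cKO. That other probe was the brighter one in cKO (mean scaled log2 4.33 against 1.35). The type I median and summed level rest on the probe dimmer in cKO, so the medians of the type I genes and the members cannot be ranked. Apart from Krt34, the probes that stood for the type I genes were detected on all 4 arrays. The summed scaled level of the 6 genes, in multiples of an array's 75th percentile, was 96.3 and 97.5 on the cKO arrays, against 0.431 and 0.487 on the WT arrays. For the 5 members the sum was 33.4 and 33.0 on the cKO arrays, and at most 0.131 and 0.156 on the WT arrays with each WT spot at the detection limit or its own signal, whichever was higher.

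Of 12 listed transcription regulators known to act on hair keratin genes or in the hair cortex, 11 were measured, 6 rose and 0 fell, with a median log2 change of 0.96. Msx2, a homeobox factor of the hair matrix, rose by 2.64, and Lef1, which carries Wnt signals to hair genes, rose by 2.24. Hoxc13, whose loss in mice leaves hair that breaks off, had scaled log2 levels of -2.11 and -2.04 on the cKO arrays, against -3.72 and -3.79 on the WT arrays, a rise of 1.68 (SE 0.044, limma adjusted p = 0.00089). Foxn1, the factor mutated in nude mice, rose by 1.33, Dlx3 by 1.75 and Msx1 by 0.96. Foxq1, mutated in satin mice, had 0.01 and was not called, as were Gata3 (0.23), Prdm1 (0.22), Tcf7l2 (0.19) and Ovol1 (0.45). Each of the 6 rises was under the smallest bound of a member (4.31 for Krt82), and each of these factors was detected on all 4 arrays. The call of Dlx3 was lost, leaving 5, when either cKO array was left out or when no filter was set.

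Of 15 listed genes for shaft assembly and crosslinking, 13 were measured, 7 rose and 0 fell, with a median log2 change of 1.28. Padi3, an enzyme that converts arginine to citrulline in hair proteins, rose by 6.49, and S100a3, a cuticle protein that binds calcium, rose by 6.38. Trichohyalin (Tchh), a structural protein of the inner root sheath and medulla, rose by 6.10 and Lrrc15 by 3.91. A dimmer Tchh probe, not detected on either WT array, was at least 1.82 log2 units higher in cKO. Dsg4, the desmoglein of the hair shaft, was not detected on either WT array and rose by at least 2.07 on the log2 scale, a call that was lost, leaving 6, without cKO replicate 1 or cKO replicate 2. Padi1 and the transglutaminase Tgm3 rose by 2.28 and 1.28. Junction genes that epidermis and follicle share were not called: Dsp had -0.05, Jup 0.11, Pkp1 0.18 and Dsc2 -0.11, although the probes of Dsc2 ran up to 1.41. When probes were averaged per gene, Dsc2 was called higher, at 0.84, which made 8.

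**Figure D4:**
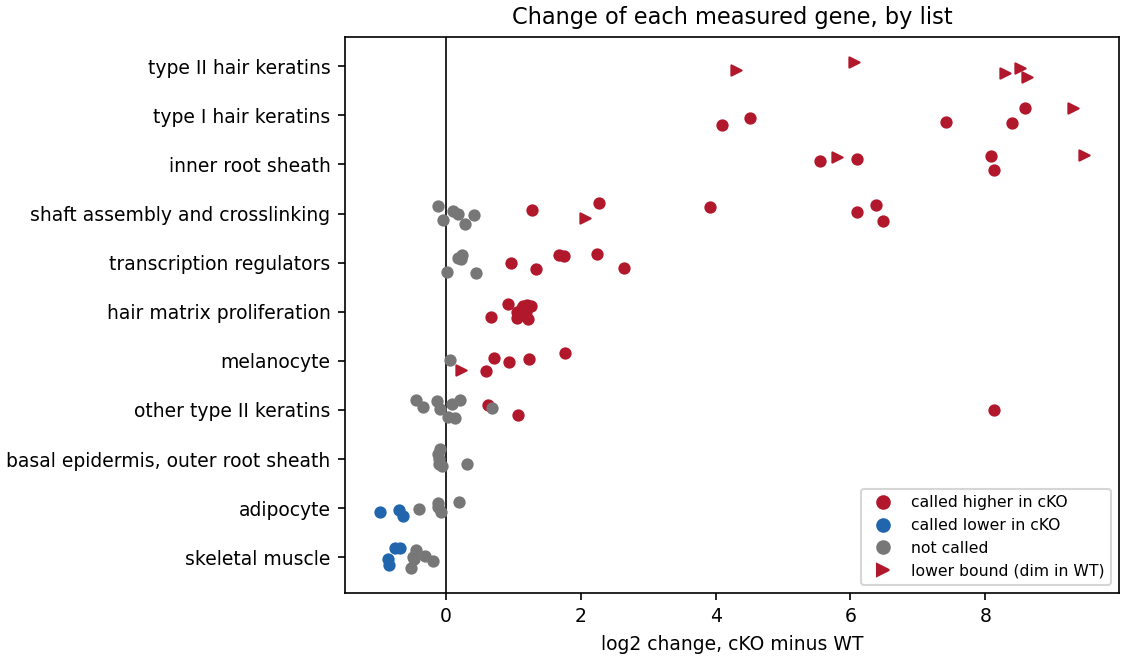
Log2 change (cKO minus WT) of each measured gene, in rows by list, with called genes in colour, uncalled genes in grey and lower bounds as triangles. The hair and inner root sheath keratins lie above 4, the proliferation markers between 0.67 and 1.26, and the basal markers between -0.11 and 0.31.

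Of 6 marker lists for the skin, those of proliferation, inner root sheath and melanocytes were higher with the members. Those of basal epidermis, muscle and fat were not. The hair matrix proliferation list holds cell cycle genes, which other dividing cells also express, so it does not mark the matrix alone. It rose in 10 of 10 genes, by 0.67 (Aurka) to 1.26 (Ccnb1, with probes from 0.58) on the log2 scale. Its summed scaled level was 28.7 and 27.5 on the cKO arrays, against 13.3 and 13.9 on the WT arrays. The inner root sheath list had 6 of 9 genes measured and all 6 rose, with a summed level of 221 and 218 in cKO and 1.56 and 1.59 in WT. Of that list, Krt25 and Krt26 were not detected on either WT array. It shares Krt71 and trichohyalin with the lists above. Melanocyte genes, which supply pigment to a growing shaft, rose in 6 of 7 measured genes, with a summed level of 14.6 and 14.8 in cKO and 9.23 and 9.15 in WT. For Oca2 among them, dim in WT, the bound was only 1.16-fold, and Tyr, the key enzyme of pigment synthesis, did not pass the filter. Without cKO replicate 2, 4 of the 7 were called, as Dct and Slc45a2 lost their calls. The basal epidermis and outer root sheath list, which marks the epithelium targeted for deletion, was called in 0 of 6 genes at limma's adjusted p under 0.05 with 1.5-fold, and Krt14 had the largest change at 0.31. Its summed level was 537 and 528 in cKO and 537 and 567 in WT. Of all 17550 genes tested, 844 were called lower in cKO. Skeletal muscle genes fell in 4 of 10, with a summed level of 1113 on both cKO arrays against 1479 and 1568 in WT. With quantile normalization, alone or after normexp, Ckm lost its call and 3 were left. Adipocyte genes fell in 3 of 8, with sums of 451 and 458 in cKO and 460 and 481 in WT. With normexp and quantile normalization, 1 adipocyte gene (Lep) fell and 2 (Pparg and Retn) lost their calls, while Pparg with quantile normalization alone and Retn without cKO replicate 1 lost theirs, leaving 2 in each case. No gene on these last 3 lists was at background, so both pools held markers of epidermis, muscle and fat, as full-thickness skin does. The telogen label was not checked against histology here. The part of these cell types in the keratin result was not tested.

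The Fgf18 probe had a processed signal of 5096 and 5293 on the cKO arrays, against 5748 and 6076 on the WT arrays, a log2 change of -0.33 that was not called. The sources used here do not say which stretch of the gene was deleted, so that probe does not check the labels.

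Promoter sequence was on hand for Krt82 and Krt84, which are printed because these neighbouring genes rose together and their promoters share a stretch of letters. Each window holds the 250 bases before the gene's start in RefSeq, assembly GRCm38.p6, 5′ to 3′ on the gene's own minus strand, with the shared stretch in capitals. The window of Krt82 is chr15:101550660-101550909 and that of Krt84 is chr15:101532821-101533070.
Krt82: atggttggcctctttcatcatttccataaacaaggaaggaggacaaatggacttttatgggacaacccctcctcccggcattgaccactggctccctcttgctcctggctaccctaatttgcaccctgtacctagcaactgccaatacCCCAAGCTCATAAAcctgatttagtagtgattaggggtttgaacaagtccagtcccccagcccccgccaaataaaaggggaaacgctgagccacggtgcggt
Krt84: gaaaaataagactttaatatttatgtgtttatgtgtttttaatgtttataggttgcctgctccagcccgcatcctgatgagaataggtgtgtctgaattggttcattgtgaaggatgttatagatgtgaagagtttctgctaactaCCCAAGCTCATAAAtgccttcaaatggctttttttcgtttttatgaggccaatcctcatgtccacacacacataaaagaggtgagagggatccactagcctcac
The 14-base run CCCAAGCTCATAAA lay at -102 to -89 from the start of Krt82 and at -104 to -91 from that of Krt84, in the same orientation. Of 32851 promoter windows of this length, these 2 alone held it on either strand (0.00609%). It was picked because both windows held it, after their letters had been read, so its rarity supports nothing further. The 10 letters AGCTCATAAA within it occurred in 23 windows (0.07%), that of the type I hair keratin Krt33b among them. CCCAAGCTCA, also within it, occurred in 41 windows (0.125%), that of the epidermal keratin Krt2 among them. Its other parts of 10 letters were in no keratin window besides those of Krt82 and Krt84. These parts were likewise read after the letters were seen and support nothing further. Letters of known motif types were searched on both strands, in the exact spellings given here. Other spellings of each motif type were not searched, so either window can hold them. The exact letters TATAAA, searched for the TATA box, occurred in the Krt84 window on the opposite strand at -206 to -201, and in 12.4% of all windows. Where a TATA box of either gene lies was not tested. Neither window held the letters searched as LEF/TCF type: CTTTGAA (4.46% of windows), CTTTGTT (5.03% of windows) and CTTTGAT (3.21% of windows). The letters TTTATTG (4.2% of windows) and TTTACTG (3.1% of windows), searched as HOXC13 type, were also in neither. The same held for GACGC (22.6% of windows), searched as FOXN1 type. Whether a motif type is absent from a window cannot be read from these spellings. The GC content was 51.2% for Krt82 and 38.8% for Krt84. A match of letters is a description of these windows and not a binding site.

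Genes with the most similar pattern were found by the root mean square difference, in log2 units over the 4 arrays, between each gene's values centred on their own mean and the median centred profile of the members. Keratin-associated proteins were left out by name. The nearest were the predicted gene Gm9789 (0.034), the inner root sheath keratin Krt25 (0.15) and the olfactory receptor gene Olfr1134 (0.16). After them came a transcript named only by an identifier in the files (0.18) and A030003K21Rik (0.21). Like the members, the 5 genes were detected on both cKO arrays and on neither WT array, so these distances rest on WT values at background and the order of the 5 cannot be read.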

How the data were processed

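Dorsal skin RNA was labelled with Cy3 and read on 4 Agilent one-colour arrays. Per the file headers, the deposited spot intensity was quantified with Feature Extraction 10.7.3.1, which subtracted background and detrended each array; coordinates are mm9. The authors' deposited value table holds that intensity as a linear ratio to 1 number per array (medians 0.101 and 0.0983 in cKO, 0.0987 and 0.101 in WT), not centred per gene. It served as an alternative.

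Here each array's log2 intensities were shifted by their 75th percentile over non-control spots (1403 and 1453 in cKO, 1272 and 1316 in WT). Between 62.1% and 69.1% of spots were well above background. Outlier and non-uniform spots were dropped. A probe stayed if both arrays of either group detected it. Of such probes, the one with the highest mean log2 level over the 4 arrays stood for a gene. Symbols were updated through the RefSeq table of GRCm38.p6: accession matched 26690 probes, symbol 5189 and older symbol 952, while 8343 kept the file's name. Promoters are RefSeq's, and 2 of the 7 members matched. Groups were compared with limma 3.58.1 (lmFit and eBayes, two-sided, Benjamini-Hochberg over 17550 genes) in R 4.3.3, with data.table (1.17.8), and checked on simulated data. Sequences and plots used Python 3.11.15, pandas 2.3.3 and matplotlib 3.10.9.

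Calls needed an adjusted p under 0.05 and 1.5-fold, and 996 genes were higher and 844 lower in cKO. The words rose and fell mark called genes only. The members, lists and tests were chosen with earlier results of these data known. Named genes were the members, Fgf18, genes of the lists and the 5 nearest in pattern. Alternatives covered background correction (normexp offset 50), scaling, the deposited values, filters, gene summary, outliers, moderation, a replicate block and each array left out. The number of arrays limits the precision.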

Additional observations from a re-analysis of the deposited data

How the results depend on the processing

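For all 5 measured members, the direction and the call held under 15 alternatives, and the filter that needs detection on all 4 arrays gave them no value. Most alternatives kept the main filter, which the members passed through the cKO arrays alone, and all drew on the same 4 arrays. That the calls held thus supports nothing further. The fitted log2 change ran from 3.66 to 6.85 for Krt82, 4.75 to 6.52 for Krt84 and 7.19 to 9.61 for Krt85. It ran from 7.46 to 10.71 for Krt86 and 7.37 to 9.41 for Krt87. Each was lowest with normexp and quantile normalization, and the part of its offset in this was not tested. Leaving out 1 array gave 6.43 to 6.60 for Krt82, 6.21 to 6.52 for Krt84, 9.10 to 9.61 for Krt85, 10.21 to 10.67 for Krt86 and 9.07 to 9.41 for Krt87. Their largest limma adjusted p, 0.0391, came without cKO replicate 1. Over all genes, normexp with quantile normalization called 478 genes lower against 844 (718 against 996 higher), and leaving out 1 array called 1010 to 1176 genes higher and 727 to 1103 lower. The replicate numbers mark duplicate arrays and pair nothing. Deviations of same-numbered arrays correlated at -0.043 across genes, and with the number as a block 986 genes were higher and 826 lower, the Krt82 change stayed 6.52 (limma adjusted p = 0.00517), and no member lost its call. No called gene of the lists changed direction under any alternative run on them. WT spots near background limit every member to a bound, and p-values describe duplicate arrays of 1 pool per group.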
